A study of Mus musculus with 21 samples.

Results

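The 35 genes described here are those of glycolysis and of the response to low oxygen: glucose entry, the glycolytic enzymes, lactate export, the oxygen sensor system and a set of its usual target genes. They were chosen by name and matched on the gene symbol, and each of the 35 was found among 50645 genes of a fatty acid table and 50644 genes of a Western diet table. The cells were macrophages grown from bone marrow of C57Bl6/J mice, and their transcripts were measured by RNA sequencing in 21 libraries, 7 groups of 3. Marrow was grown in medium with L929 cell supernatant, a source of the growth factor that makes macrophages, and the labels give the donors' age as 24 weeks and the time on the diets as 24 weeks. The fatty acid table held 4 groups from chow-fed mice. These were fatty acid with TAK242 then LPS, fatty acid then LPS, LPS alone, and untreated cells (replicates 1 to 3). Fatty acid was a mix of palmitic and oleic acid at 1:3, given at 10 mM for the first 4 days and washed off. TAK242, an inhibitor of the LPS receptor TLR4, was given at 200 nM in the same 4 days, so it had been removed before LPS. LPS, a lipid of the bacterial outer membrane, was given at 100 ng/ml on day 7 for 24 h. The Western diet table held libraries labelled Western diet with LPS, libraries labelled Western diet without LPS, and untreated cells of chow-fed mice (replicates 4 to 6). No group here had fatty acid without LPS, or TAK242 without fatty acid, so fatty acid was compared among cells that all received LPS, or together with LPS against untreated cells. The labels do not say whether a replicate is an animal or a culture, so the p-values measure the spread between these samples, which may be technical.

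Glycolysis splits glucose into pyruvate in the cytosol and yields energy without oxygen, and pyruvate can then be turned into lactate and exported. HIF-1, a transcription factor built on the HIF-1α protein, raises most genes of this route. In oxygenated cells the prolyl hydroxylases mark HIF-1α for destruction, and low oxygen stops them. In macrophages, LPS is known to stabilise HIF-1α also in the presence of oxygen, and macrophages activated in this way are known for a high use of glucose.

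Levels are deposited values with no named unit. They behave like values per transcript length and per library, and are compared within a gene only. A gene was called higher or lower where limma's test across all genes of its table, on log2(value + 1), gave an adjusted p (Benjamini-Hochberg) under 0.05. Changes are log2 changes ± SE on that scale, where changes of low genes come out too small. Library sums were 321532 to 386023 in the fatty acid table and 327210 to 385061 in the Western diet table, and the depth in reads is unknown. The members took 1.17% to 1.49% of a library's sum in the fatty acid table and 1.26% to 2.10% in the Western diet table. Macrophage markers matched the labelled cell type in every library, with Csf1r at 225.5 or more in the fatty acid table and 200.8 or more in the Western diet table. No lymphocyte, dendritic cell or erythroid marker reached 1 in the fatty acid table, and of 9 neutrophil markers Mmp8, the highest, lay between 27.0 and 139.1 while Ly6g did not exceed 0.106. The 9 neutrophil markers summed to 31.3 to 34.4 after fatty acid then LPS, against 51.5 to 145.4 after LPS alone, and of the 4 tested Camp and Mmp8 were called lower. The 8 stromal markers moved the way many members did: they summed to 19.1 to 23.1 after fatty acid with TAK242 then LPS, 9.08 to 11.8 after fatty acid then LPS, 21.5 to 50.3 after LPS alone and 7.00 to 15.5 in untreated cells. Of the 5 stromal markers tested, 5 were called higher in LPS against untreated cells, 4 lower in fatty acid then LPS against LPS, and 2 higher in fatty acid with TAK242 then LPS against fatty acid then LPS, while Lum was at 0 or at most 0.0155. Of all genes tested, 13.8%, 15.3% and 3.01% were called in these directions. Dcn, a stromal marker tested, averaged 0.0104 in untreated cells and 0.527 after LPS alone, so the filter may have set its direction. The 8 proliferation markers summed to 7.72 to 13.4 in LPS cells and 330.9 to 398.0 in untreated cells. In untreated cells all 8 reached 1 in a library, against 5 after LPS alone. After fatty acid then LPS 2 did, and after fatty acid with TAK242 then LPS 4. Some could pass the filter of 1 or more in at least 3 libraries through untreated cells only. Their direction may thus have been set by the filter, and no calls are given. The part of all these markers in the results was not tested. In bulk samples, fewer cells of a type and less RNA per cell cannot be told apart.

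More members were called higher than lower with LPS, and with fatty acid before LPS nearly all members called were lower than with LPS alone. Of the 34 members tested in LPS against untreated cells, 12 were higher and 8 lower, which is 35.3% and 23.5%, beside 13.8% and 47.9% of the 10476 genes tested. In fatty acid then LPS against LPS alone, 1 member was higher and 15 were lower (2.94% and 44.1%), beside 21.8% and 15.3% of the genes tested. In fatty acid with TAK242 then LPS against fatty acid then LPS, 5 members were higher and 1 was lower (14.7% and 2.94%), beside 3.01% and 1.68%. In fatty acid with TAK242 then LPS against LPS alone, 1 member, Hk1, was higher and 0 were lower by limma, beside 4.05% and 1.84%; at an unadjusted p under 0.05, 5 were higher and 4 lower (14.7% and 11.8%), beside 19.5% and 10.3% of the genes tested. Adm was the member that did not pass the filter of 1 or more in at least 3 libraries, in both tables.

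**Figure D1:**
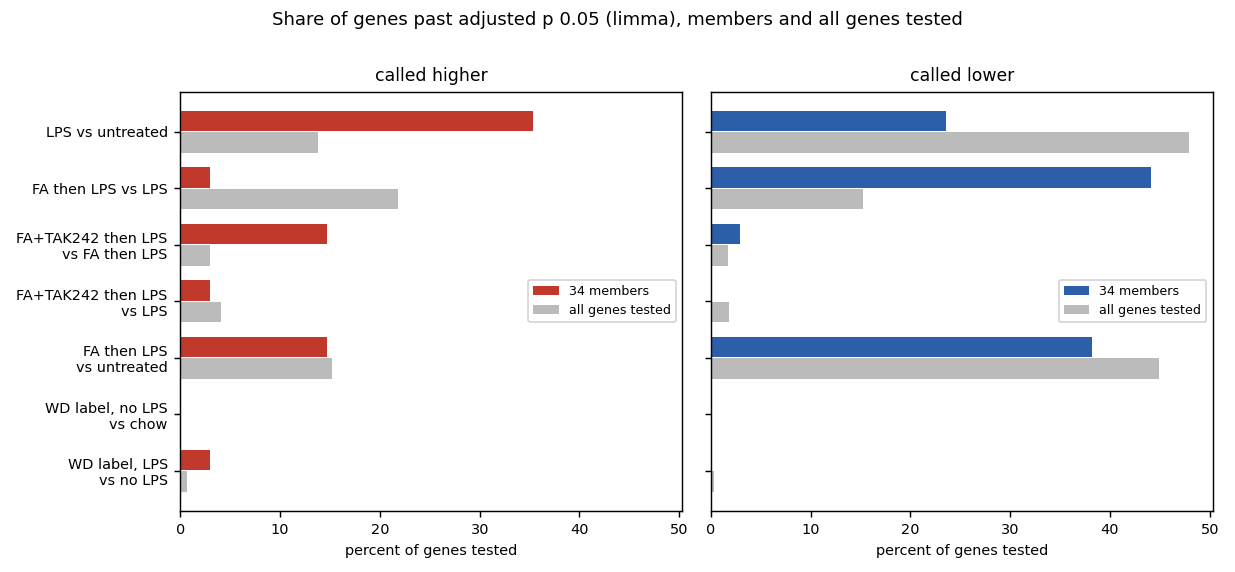
Percent of genes called higher (left) and lower (right) at an adjusted p under 0.05 in each of 7 comparisons, for the 34 members tested (coloured) and for all genes tested (grey). Members called lower were 44.1% in fatty acid then LPS against LPS, where 15.3% of all genes tested were; members called higher were 35.3% in LPS against untreated cells, where 13.8% were.

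The medians followed the counts. The members' median log2 change was 0.07 in LPS against untreated cells, beside -0.31 for all genes tested. It was -0.25 in fatty acid then LPS against LPS, beside 0.06, and 0.30 in fatty acid with TAK242 then LPS against fatty acid then LPS, beside -0.000930. In the last of these, 29 of the 34 members had a change above 0. These comparisons share libraries with each other, so their counts and medians are given side by side and are not independent. With median-ratio scaling between libraries, the median over all genes tested in LPS against untreated cells moved by 0.34 on the log2 scale, to 0.04, and 20 members were then higher and 6 lower, beside 2977 genes higher and 2705 lower in all in place of 1444 and 5019. The 12 members higher in LPS cells were called higher under both scalings, and 6 of the 8 lower ones were called lower under both. In fatty acid then LPS against LPS, scaling gave 1 member higher and 17 lower.

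Scaling also changed single values. In LPS against untreated cells it moved the changes of Aldoa to 0.70, Pgk1 to 0.69, Ldha to 0.84, Hif1a to 1.07 and Bnip3 to 1.00, and those of Pfkp to -0.47, Pfkm to -0.48 and Pdk1 to -0.49, all still called. The 8 members called higher only with scaling were Gapdh (0.57, adjusted p = 0.000910), Pkm (0.75, adjusted p = 0.00351), Tpi1 (0.39, adjusted p = 0.0124), Higd1a (0.44, adjusted p = 0.0121), Egln3 (0.55, adjusted p = 0.0144), Hk1 (0.47, adjusted p = 0.0146), Eno1 (0.72, adjusted p = 0.0366) and Pgam1 (0.25, adjusted p = 0.0434). In fatty acid then LPS against LPS, Egln1 (-0.32, adjusted p = 0.0240) and P4ha1 (-0.19, adjusted p = 0.0249) were called lower only with scaling. In fatty acid with TAK242 then LPS against fatty acid then LPS, Hk1 (0.58, adjusted p = 0.0343), Pfkl (0.59, adjusted p = 0.0407) and Bnip3 (0.36, adjusted p = 0.0458) were called higher only with scaling, and in fatty acid with TAK242 then LPS against LPS Aldoa was called lower (-0.43, adjusted p = 0.0490).

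Of the 4 glucose transporter and hexokinase genes, Slc2a1 and Hk2 were called higher with LPS. Slc2a1, the glucose transporter GLUT1, had 19.9, 28.5 and 18.3 after fatty acid with TAK242 then LPS, 14.7, 13.5 and 12.04 after fatty acid then LPS, 41.8, 27.8 and 22.7 after LPS alone and 9.27, 10.8 and 8.09 in untreated cells. The LPS-only libraries lay above the untreated ones without overlap, and the libraries with fatty acid then LPS fell between those groups without overlapping either. It rose with LPS (1.58 ± 0.22, adjusted p = 8.60e-05) and was lower with fatty acid before LPS (-1.099 ± 0.22, adjusted p = 0.00351). With TAK242 present during the fatty acid days all of its libraries lay above those without TAK242, but the change was not called (0.67 ± 0.22, adjusted p = 0.103). Hk2, the inducible hexokinase that traps glucose in the cell, had 11.8, 14.1 and 11.96 after fatty acid with TAK242 then LPS, 10.2, 10.4 and 9.38 after fatty acid then LPS, 11.9, 11.3 and 10.4 after LPS alone and 3.85, 5.69 and 4.48 in untreated cells. All LPS-treated libraries exceeded every untreated one. Hk2 rose with LPS (1.12 ± 0.12, adjusted p = 1.24e-05), and its change in fatty acid then LPS against LPS alone was -0.15, adjusted p = 0.339.

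The other hexokinases were not called with LPS on the deposited values. Hk3, the hexokinase typical of myeloid cells, had 152, 154 and 163 after fatty acid with TAK242 then LPS, 164, 156 and 145 after fatty acid then LPS, 81.5, 136 and 163 after LPS alone and 123, 133 and 130.2 in untreated cells. Its groups overlapped between LPS and untreated cells, because LPS replicate 1 was the lowest of the 12 libraries while the other LPS libraries were above the untreated ones. It was not called in any comparison of this table, with changes of -0.08 to 0.36, except with median-ratio scaling in fatty acid then LPS against untreated cells (0.61, adjusted p = 0.0151). Hk1, the widely expressed hexokinase, had 23.7, 24.2 and 24.2 after fatty acid with TAK242 then LPS, 16.6, 15.2 and 15.3 after fatty acid then LPS, 11.1, 17.5 and 17.3 after LPS alone and 12.3, 16.3 and 14.1 in untreated cells. The libraries with TAK242 were above all 9 others. It was higher in fatty acid with TAK242 then LPS than in LPS alone (0.65 ± 0.15, adjusted p = 0.0419), and against fatty acid then LPS its change was 0.58, adjusted p = 0.0570.

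In upper glycolysis the genes that set the flux through phosphofructokinase split by isoform. Pfkfb3, the enzyme that makes the strongest activator of phosphofructokinase, had 87.3, 106 and 89.1 after fatty acid with TAK242 then LPS, 132, 109 and 102 after fatty acid then LPS, 72.1, 77.2 and 122 after LPS alone and 9.23, 11.3 and 10.1 in untreated cells. Every LPS-treated library stood above every untreated one. Pfkfb3 had the largest rise of the members in LPS against untreated cells (2.99 ± 0.18, adjusted p = 1.58e-07), and its libraries with fatty acid then LPS overlapped those with LPS alone (0.36, adjusted p = 0.140). Pfkfb4, a related enzyme of the same activator, had 4.67, 5.24 and 5.48 after fatty acid with TAK242 then LPS, 6.86, 7.37 and 6.34 after fatty acid then LPS, 4.27, 4.46 and 4.58 after LPS alone and 5.22, 5.08 and 5.10 in untreated cells. Fatty acid then LPS gave the 3 highest values. Pfkfb4 was the single member higher in fatty acid then LPS than in LPS (0.53 ± 0.08, adjusted p = 0.00107) and the single member lower with TAK242 present (-0.36 ± 0.08, adjusted p = 0.0346).

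The phosphofructokinase subunits also differed. Pfkl, the liver-type subunit, had 44.2, 49.6 and 37.6 after fatty acid with TAK242 then LPS, 31.2, 28.6 and 25.6 after fatty acid then LPS, 61.8, 54.1 and 44.9 after LPS alone and 21.6, 31.1 and 22.7 in untreated cells. LPS-only libraries did not overlap with either untreated cells or fatty acid then LPS. It rose with LPS (1.07 ± 0.16, adjusted p = 0.000177) and was lower with fatty acid before LPS (-0.88 ± 0.16, adjusted p = 0.00258). Pfkp, the platelet-type subunit, had 19.1, 24.1 and 18.9 after fatty acid with TAK242 then LPS, 15.1, 15.3 and 13.0 after fatty acid then LPS, 21.3, 18.4 and 18.4 after LPS alone and 34.6, 39.7 and 34.2 in untreated cells. Here untreated cells were highest and fatty acid then LPS lowest, with no overlap of either with LPS alone. Pfkp was lower with LPS (-0.87 ± 0.11, adjusted p = 5.76e-05), lower again with fatty acid before LPS (-0.40 ± 0.11, adjusted p = 0.0184), and higher with TAK242 present (0.48 ± 0.11, adjusted p = 0.0405).

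Pfkm, the muscle-type subunit, had 2.52, 2.75 and 3.02 after LPS alone and 5.16, 6.16 and 5.58 in untreated cells, and was lower with LPS (-0.82 ± 0.08, adjusted p = 9.73e-06). It was not called in fatty acid then LPS against LPS (0.08, adjusted p = 0.499). Gpi1, which converts glucose 6-phosphate to its fructose form, was called in none of the 5 comparisons of this table. Its LPS libraries disagreed, with 78.9, 232 and 209 for replicates 1, 2 and 3, against 186, 197 and 183 in untreated cells. The reads of Pfkm and Pfkp can be shared with Senp1 and Pitrm1, which overlap them on the other strand, since the sources used here do not state whether counting used strand.

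**Figure D2:**
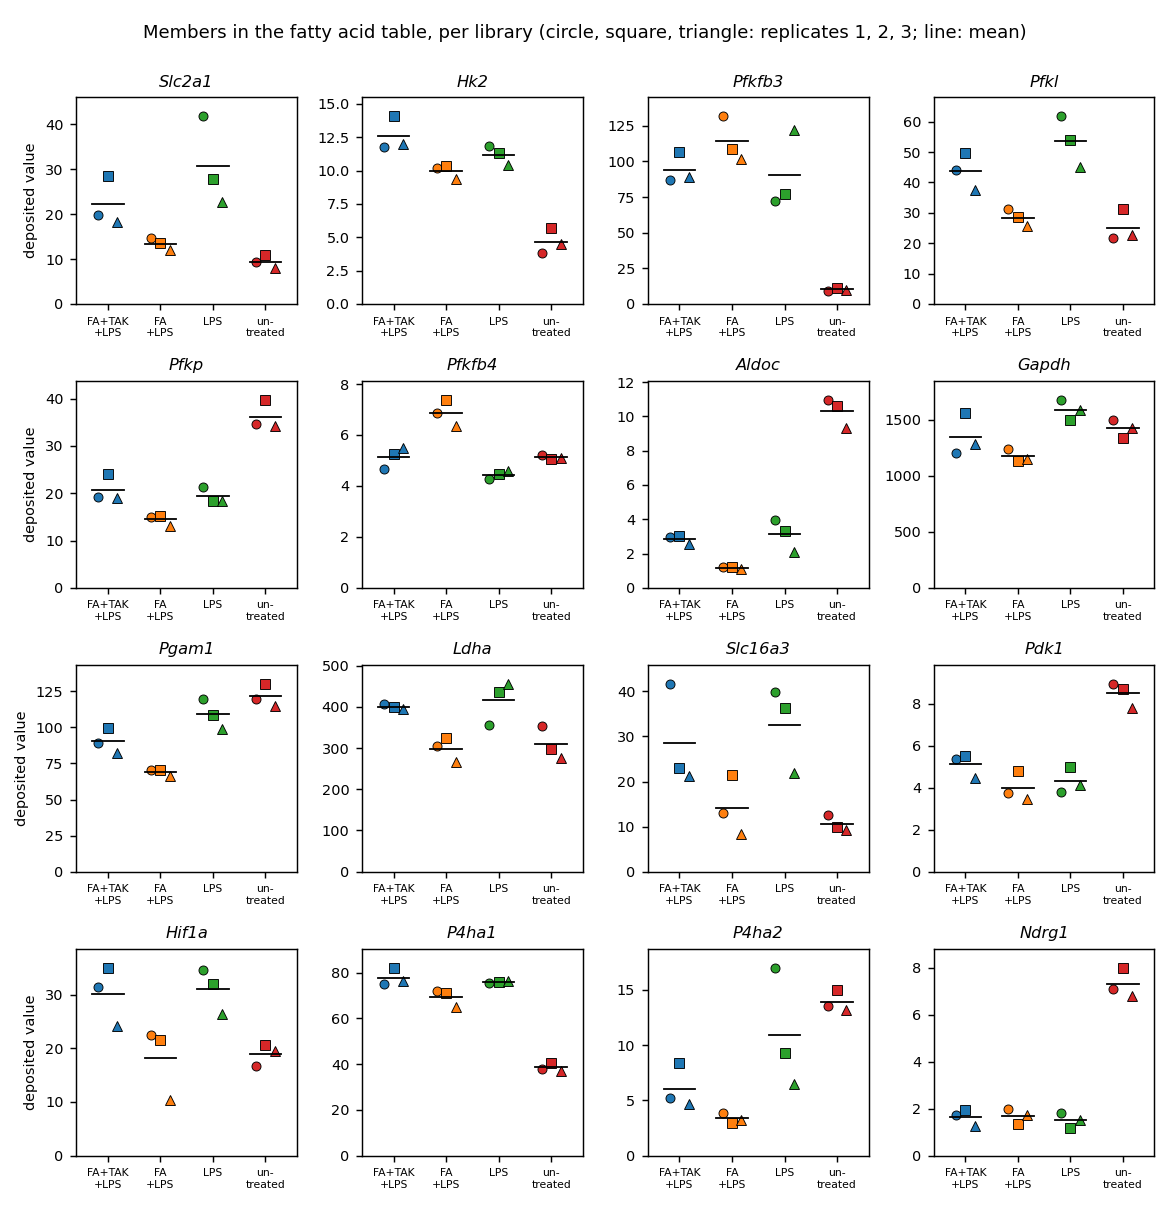
Deposited values (y axis, starting at 0) of 16 members in the 12 libraries of the fatty acid table, by group (x axis), with circle, square and triangle for replicates 1, 2 and 3 and a line at the group mean. Slc2a1, Pfkl, Slc16a3 and Hif1a stood higher in LPS libraries than in libraries with fatty acid then LPS, while Pfkfb3, Hk2 and P4ha1 stayed high in all LPS-treated groups and Ndrg1, Pdk1 and Aldoc were highest in untreated cells.

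The aldolases moved in opposite directions with LPS and in the same direction with fatty acid before LPS. Aldoa, the main aldolase, had 644, 716 and 619.8 after fatty acid with TAK242 then LPS, 612, 568 and 495 after fatty acid then LPS, 928, 864 and 754 after LPS alone and 766, 658 and 663 in untreated cells. LPS libraries and untreated ones overlapped slightly, and the libraries with fatty acid then LPS were below all others. Aldoa was called higher with LPS only narrowly (0.28 ± 0.11, adjusted p = 0.0496), and was lower with fatty acid before LPS (-0.60 ± 0.11, adjusted p = 0.00300). Another protein-coding entry named Aldoa overlaps it on the same strand and was not examined, so reads could be shared. Aldoc, the aldolase best known from brain, had 2.94, 3.01 and 2.58 after fatty acid with TAK242 then LPS, 1.21, 1.20 and 1.09 after fatty acid then LPS, 3.96, 3.33 and 2.09 after LPS alone and 10.9, 10.6 and 9.31 in untreated cells. The order of groups was complete, with fatty acid then LPS below LPS and LPS below untreated cells, and no overlap. Aldoc was lower with LPS (-1.48 ± 0.15, adjusted p = 7.47e-06) and with fatty acid before LPS (-0.90 ± 0.15, adjusted p = 0.00158). It was higher with TAK242 present (0.82 ± 0.15, adjusted p = 0.0174), where its values were close to those of LPS alone (-0.08, adjusted p = 0.757). Tpi1, the triose phosphate isomerase, was lower with fatty acid before LPS (-0.33 ± 0.11, adjusted p = 0.0367), with 196, 192 and 174 after fatty acid then LPS and 211, 263 and 237 after LPS alone.

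Of the 6 members of lower glycolysis, Pgk1 was called higher with LPS on the deposited values, and Gapdh, Pgk1 and Pgam1 were lower with fatty acid before LPS. Gapdh, whose enzyme starts the energy-yielding phase, had 1208, 1560.2 and 1288 after fatty acid with TAK242 then LPS, 1242, 1133 and 1153 after fatty acid then LPS, 1678, 1502 and 1594 after LPS alone and 1502, 1342 and 1432 in untreated cells. The libraries with fatty acid then LPS lay below all LPS-only and untreated libraries. Gapdh was not called in LPS against untreated cells (0.16, adjusted p = 0.213), although with median-ratio scaling it was higher (0.57, adjusted p = 0.000910), and was lower in fatty acid then LPS than in LPS (-0.44 ± 0.11, adjusted p = 0.00922), so its level is not constant over the groups here. Pgk1, which makes the first ATP of the pathway, had 329.6, 359 and 299 after fatty acid with TAK242 then LPS, 282, 275 and 259 after fatty acid then LPS, 411, 359.9 and 320.1 after LPS alone and 304, 308 and 282 in untreated cells. LPS values were above untreated values and above those after fatty acid then LPS. Pgk1 was higher with LPS (0.28 ± 0.10, adjusted p = 0.0366) and lower with fatty acid before LPS (-0.41 ± 0.10, adjusted p = 0.0114).

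Pgam1, the phosphoglycerate mutase, had 89.5, 99.6 and 82.4 after fatty acid with TAK242 then LPS, 70.3, 70.5 and 66.1 after fatty acid then LPS, 119.9, 108 and 99.0 after LPS alone and 119.7, 130.1 and 115 in untreated cells. Fatty acid then LPS gave the 3 lowest values, and the libraries with TAK242 lay between those and untreated cells. It had the smallest adjusted p of the members lower in fatty acid then LPS than in LPS (-0.65 ± 0.10, adjusted p = 0.000990) and was higher with TAK242 present (0.38 ± 0.10, adjusted p = 0.0489). Eno1, the main enolase, had 366, 418 and 218 after fatty acid with TAK242 then LPS, 288, 266 and 257 after fatty acid then LPS, 491, 275 and 409.9 after LPS alone and 239.7, 378 and 319 in untreated cells. Its groups overlapped throughout, with changes of 0.31, adjusted p = 0.331 with LPS and -0.50, adjusted p = 0.166 with fatty acid before LPS. Pkm, the pyruvate kinase gene, had 607, 798 and 552 after fatty acid with TAK242 then LPS, 523, 574 and 473 after fatty acid then LPS, 726, 529 and 604 after LPS alone and 477, 598 and 405 in untreated cells. It too was called in no comparison on the deposited values, with 0.33, adjusted p = 0.128 for LPS and -0.24, adjusted p = 0.324 for fatty acid before LPS, and with median-ratio scaling it was higher with LPS (0.75, adjusted p = 0.00351) and in fatty acid then LPS against untreated cells (0.45, adjusted p = 0.0440). Eno2, the enolase best known from neurons, was at 0.897 to 1.70 in all 12 libraries and was not called. Gapdh, Pgk1, Ldha, Aldoa, Pgam1 and Tpi1 have processed copies in the genome; those listed as copies by name did not exceed 0.138 in this table, and copies under other names were not examined.

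In the lactate branch, Ldha and Slc16a3 were higher with LPS and lower with fatty acid before LPS. Ldha, the lactate dehydrogenase subunit that favours lactate, had 407, 399 and 396 after fatty acid with TAK242 then LPS, 306, 324 and 267 after fatty acid then LPS, 356, 436 and 456 after LPS alone and 354, 299 and 277 in untreated cells. LPS-only libraries lay above the untreated ones and above those with fatty acid then LPS, the nearest values being 356 against 354 and 324. Ldha was higher with LPS (0.42 ± 0.12, adjusted p = 0.0106) and lower with fatty acid before LPS (-0.47 ± 0.12, adjusted p = 0.0120). Slc16a3, the lactate exporter MCT4, had 41.7, 23.0 and 21.2 after fatty acid with TAK242 then LPS, 13.0, 21.4 and 8.26 after fatty acid then LPS, 39.9, 36.2 and 21.8 after LPS alone and 12.7, 9.82 and 9.35 in untreated cells. Replicates spread widely within every LPS-treated group, yet LPS alone did not overlap with untreated cells or with fatty acid then LPS. Slc16a3 was higher with LPS (1.502 ± 0.34, adjusted p = 0.00291) and lower with fatty acid before LPS (-1.19 ± 0.34, adjusted p = 0.0199). Pdk1, the kinase that keeps pyruvate out of mitochondrial oxidation, had 5.37, 5.50 and 4.47 after fatty acid with TAK242 then LPS, 3.75, 4.82 and 3.46 after fatty acid then LPS, 3.82, 4.97 and 4.13 after LPS alone and 8.95, 8.72 and 7.83 in untreated cells. All LPS-treated groups were below untreated cells and overlapped each other. Pdk1 was lower with LPS (-0.84 ± 0.12, adjusted p = 0.000136) and was not called with fatty acid before LPS (-0.09, adjusted p = 0.615).

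Among the oxygen sensor genes, Hif1a, which encodes HIF-1α, had 31.4, 35.003 and 24.1 after fatty acid with TAK242 then LPS, 22.5, 21.6 and 10.3 after fatty acid then LPS, 34.6, 32.0 and 26.4 after LPS alone and 16.6, 20.7 and 19.5 in untreated cells. LPS-only libraries were above untreated ones and above those with fatty acid then LPS. Hif1a was higher with LPS (0.68 ± 0.25, adjusted p = 0.0370) and lower with fatty acid before LPS (-0.81 ± 0.25, adjusted p = 0.0283). Without the low replicate 3 of fatty acid then LPS, the change against LPS alone was -0.46 and was not called. Gm49321, a protein-coding gene on the same strand, overlaps Hif1a and was not examined. An antisense gene, Gm15283, also overlaps Hif1a. It had 3.88, 3.67 and 3.40 after fatty acid then LPS and 6.43, 5.45 and 4.05 after LPS alone. Part of the reads of Hif1a could be shared with either gene. These are transcript values, and HIF-1α protein was not measured here.

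Egln1, the main prolyl hydroxylase of HIF-1α, had 4.20, 4.14 and 3.32 after fatty acid with TAK242 then LPS, 2.73, 2.38 and 2.06 after fatty acid then LPS, 2.88, 3.28 and 3.08 after LPS alone and 3.65, 4.61 and 3.82 in untreated cells. Untreated cells were above LPS and above fatty acid then LPS, and the libraries with TAK242 overlapped with untreated cells. Egln1 was higher with TAK242 present (0.53 ± 0.11, adjusted p = 0.0293) and lower with LPS (-0.30 ± 0.11, adjusted p = 0.0366), although with median-ratio scaling the LPS change was 0.03. Egln3, a hydroxylase that is itself a HIF-1 target, had 1.44, 1.503 and 1.14 after fatty acid with TAK242 then LPS, 0.704, 0.763 and 0.845 after fatty acid then LPS, 2.28, 1.54 and 1.04 after LPS alone and 1.00, 1.35 and 0.810 in untreated cells. Its values were near the filter limit, and fatty acid then LPS gave the lowest ones next to an untreated library. Egln3 was lower in fatty acid then LPS than in LPS (-0.54 ± 0.16, adjusted p = 0.0208).

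P4ha1 and P4ha2 encode catalytic subunits of collagen prolyl hydroxylase and are usual HIF-1 targets. P4ha1 had 75.1, 82.2 and 76.4 after fatty acid with TAK242 then LPS, 72.2, 71.0 and 65.2 after fatty acid then LPS, 75.6, 76.0 and 76.5 after LPS alone and 38.1, 40.7 and 36.9 in untreated cells. The LPS-treated groups were all near the same level and well above untreated cells. P4ha1 was higher with LPS (0.96 ± 0.07, adjusted p = 7.42e-07) and was not called with fatty acid before LPS (-0.13, adjusted p = 0.179). P4ha2 had 5.17, 8.34 and 4.63 after fatty acid with TAK242 then LPS, 3.86, 2.97 and 3.24 after fatty acid then LPS, 17.0, 9.29 and 6.47 after LPS alone and 13.5, 15.0 and 13.2 in untreated cells. Fatty acid then LPS was below all other libraries, and LPS replicates ran from below to above the untreated range. P4ha2 was lower in fatty acid then LPS than in LPS (-1.36 ± 0.28, adjusted p = 0.00419). The stromal marker sums given above were also lower after fatty acid then LPS than after LPS alone, without overlap.

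**Figure D3:**
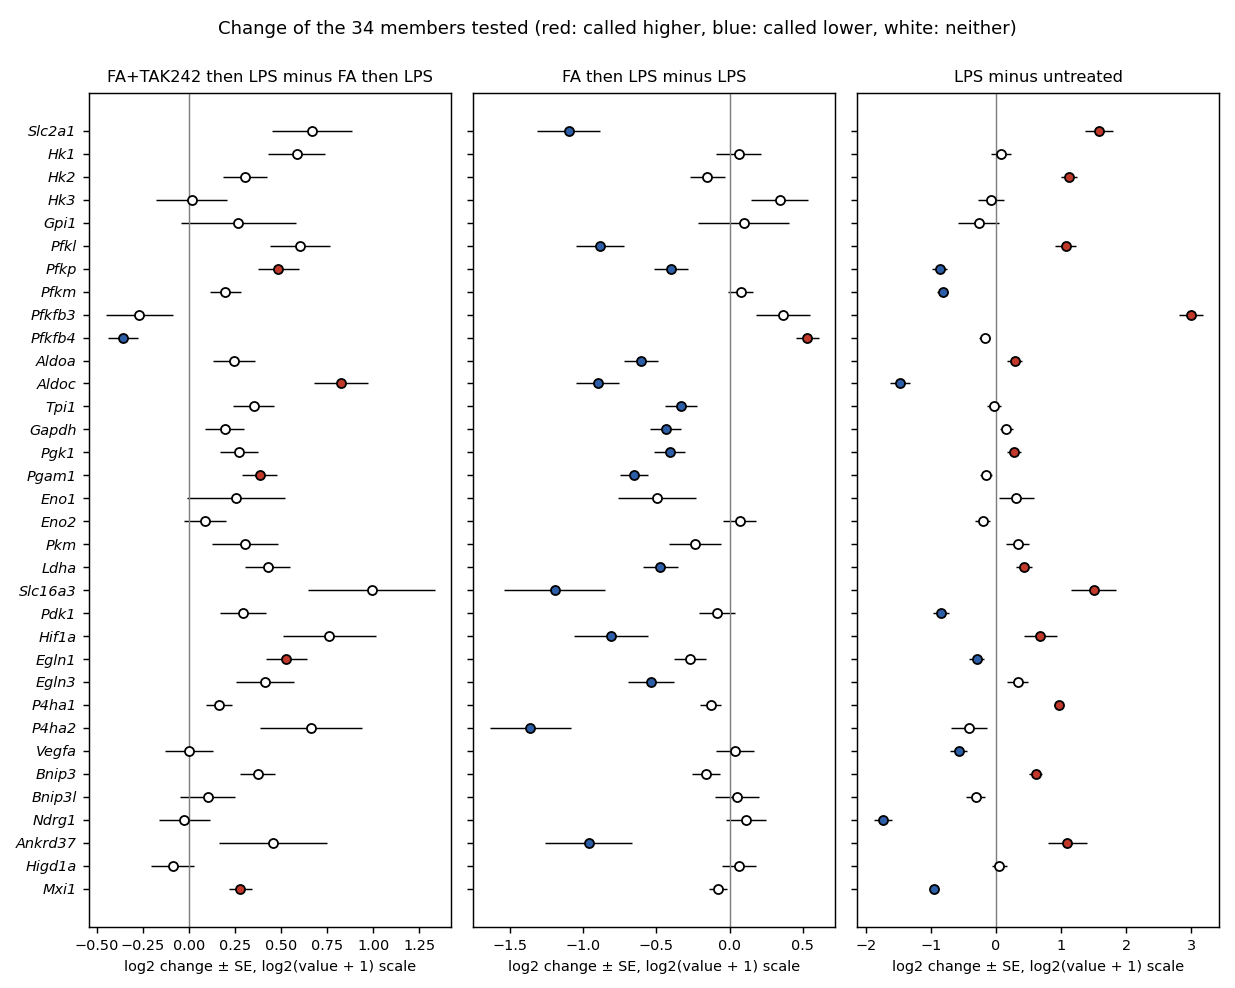
Log2 change ± SE (x axis, log2(value + 1) scale, a separate scale in each panel) of the 34 members tested, for fatty acid with TAK242 then LPS minus fatty acid then LPS (left), fatty acid then LPS minus LPS (middle) and LPS minus untreated (right). Red points were called higher, blue points lower and white points neither; 15 blue points stand in the middle panel and 12 red and 8 blue ones in the right panel.

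The other hypoxia targets did not move as a block. Bnip3, a receptor that marks mitochondria for removal, had 27.7, 30.0 and 23.3 after fatty acid with TAK242 then LPS, 20.8, 20.9 and 19.9 after fatty acid then LPS, 22.4, 22.5 and 24.2 after LPS alone and 15.5, 15.2 and 13.8 in untreated cells. Its LPS-treated libraries were all above the untreated ones, and those with fatty acid then LPS were just below LPS alone. Bnip3 was higher with LPS (0.61 ± 0.09, adjusted p = 0.000203) and was not called with fatty acid before LPS (-0.16, adjusted p = 0.202) or with TAK242 present (0.37, adjusted p = 0.0502). Ankrd37, a small ankyrin-repeat protein gene induced by hypoxia, had 3.73, 5.14 and 2.98 after fatty acid with TAK242 then LPS, 2.72, 2.22 and 2.74 after fatty acid then LPS, 11.4, 4.00 and 4.36 after LPS alone and 2.47, 2.43 and 1.85 in untreated cells. LPS replicate 1 stood far above every other library. Ankrd37 was higher with LPS (1.097 ± 0.29, adjusted p = 0.00755) and lower with fatty acid before LPS (-0.96 ± 0.29, adjusted p = 0.0257). Without LPS replicate 1 these changes were 0.68 and -0.54. Its gene span overlaps Ufsp2 and Lrp2bp on the other strand, and exons were not compared. Ufsp2 had 41.9, 33.1 and 31.0 after LPS and 38.6, 34.95 and 30.5 in untreated cells, which overlapped. Lrp2bp was not examined.

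Ndrg1, a stress gene usually raised by low oxygen, had 1.75, 1.96 and 1.25 after fatty acid with TAK242 then LPS, 1.99, 1.34 and 1.75 after fatty acid then LPS, 1.83, 1.16 and 1.5004 after LPS alone and 7.10, 8.01 and 6.79 in untreated cells. Untreated libraries were several times higher than any LPS-treated one, and the LPS-treated groups overlapped. Ndrg1 had the largest fall among the members with LPS (-1.74 ± 0.14, adjusted p = 1.19e-06). Mxi1, an antagonist of MYC that HIF-1 can induce, had 1.096, 1.09 and 1.12 after fatty acid with TAK242 then LPS, 0.666, 0.750 and 0.789 after fatty acid then LPS, 0.887, 0.782 and 0.829 after LPS alone and 2.48, 2.50 and 2.60 in untreated cells. It was lower with LPS (-0.95 ± 0.06, adjusted p = 2.67e-07), and the libraries with TAK242 were above the other LPS-treated ones (0.28 ± 0.06, adjusted p = 0.0348, against fatty acid then LPS). Vegfa, the growth factor of blood vessels, had 1.98, 2.202 and 1.94 after fatty acid with TAK242 then LPS, 2.32, 1.96 and 1.86 after fatty acid then LPS, 1.75, 1.95 and 2.23 after LPS alone and 3.03, 2.86 and 4.51 in untreated cells. It was lower with LPS (-0.57 ± 0.13, adjusted p = 0.00296), a call lost with median-ratio scaling, where the change was -0.27. Adm, which encodes the vessel-relaxing peptide adrenomedullin, did not exceed 0.565 in any library of the table and was not tested. Bnip3l, a relative of Bnip3, and Higd1a, a mitochondrial protein gene, were not called in any comparison of this table, with changes of -0.31 to 0.15 and -0.09 to 0.12; with median-ratio scaling Higd1a was higher with LPS (0.44, adjusted p = 0.0121) and in fatty acid then LPS against untreated cells (0.44, adjusted p = 0.0110).

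Leaving out each library in turn showed which calls rest on few libraries. In LPS against untreated cells, 16 of the 20 calls held in all 6 such fits. Aldoa was lost without untreated replicate 2 or 3 or LPS replicate 1 or 2 (0.22 to 0.37, adjusted p up to 0.144), and Pgk1 without any untreated replicate or LPS replicate 1 or 2 (0.19 to 0.37, adjusted p up to 0.116). Hif1a was lost without the same libraries as Pgk1 (0.59 to 0.79, adjusted p up to 0.108), and Egln1 without untreated replicate 2 or 3 or LPS replicate 1 or 3 (-0.35 to -0.22, adjusted p up to 0.139). In fatty acid then LPS against LPS, 10 of the 16 calls held. Tpi1 was lost without LPS replicate 2 or 3 or any replicate of fatty acid then LPS (-0.41 to -0.26, adjusted p up to 0.128), and Ankrd37 without any replicate of fatty acid then LPS (-1.20 to -0.54, adjusted p up to 0.0780). Slc16a3 was lost without LPS replicate 1 or 2 or fatty acid then LPS replicate 1 or 3 (-1.52 to -0.88, adjusted p up to 0.0753). Hif1a was lost without LPS replicate 1 or 2 or fatty acid then LPS replicate 3 (-0.99 to -0.46, adjusted p up to 0.0807), Egln3 without LPS replicate 1 or fatty acid then LPS replicate 1 or 2 (-0.71 to -0.36, adjusted p up to 0.0589), and Pfkp without LPS replicate 1 or fatty acid then LPS replicate 3 (-0.44 to -0.33, adjusted p up to 0.0694). Other settings ended calls too. With no filter, Aldoa, Pgk1, Hif1a and Egln1 in LPS against untreated cells and Tpi1, Slc16a3, Hif1a, Egln3 and Ankrd37 in fatty acid then LPS against LPS were not called. With only the 6 libraries compared, the same genes but Hif1a in LPS against untreated cells were not called, and with a pseudocount of 0.1 Aldoa was not.

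For TAK242 the calls were few. None of the 6 calls in fatty acid with TAK242 then LPS against fatty acid then LPS held in all 6 fits that left out a library each, and the Hk1 call against LPS alone did not either. At an unadjusted p under 0.05, 20 members were higher and 1 lower in the first of these comparisons, beside 12.7% and 10.3% of the genes tested. With no filter, Pfkp, Pgam1, Egln1 and Mxi1 were not called there. Slc2a1, Pfkl, Tpi1, Ldha and Hif1a had changes of 0.67, 0.60, 0.35, 0.43 and 0.76 there, with groups that did not overlap and adjusted p of 0.103, 0.0619, 0.0966, 0.0743 and 0.109. Slc16a3 had the largest change, 0.99, adjusted p = 0.121, with overlapping groups.

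Set against untreated cells, fatty acid then LPS left 5 members higher and 13 lower, which is 14.7% and 38.2% beside 15.2% and 44.9% of the genes tested. Those higher were Pfkfb3 (3.36 ± 0.18, adjusted p = 6.15e-08), Hk2 (0.96 ± 0.12, adjusted p = 3.77e-05), P4ha1 (0.83 ± 0.07, adjusted p = 2.36e-06), Bnip3 and Pfkfb4. Slc2a1 (0.48, adjusted p = 0.0798), Ldha (-0.05, adjusted p = 0.757), Slc16a3 (0.31, adjusted p = 0.465) and Hif1a (-0.13, adjusted p = 0.682) were not called in this comparison. The falls with the smallest adjusted p were those of Mxi1 (-1.02 ± 0.06, adjusted p = 1.42e-07), Aldoc (-2.38 ± 0.15, adjusted p = 1.80e-07), Ndrg1 (-1.63 ± 0.14, adjusted p = 2.11e-06) and Pfkp (-1.27 ± 0.11, adjusted p = 3.08e-06). P4ha2, Pgam1, Pdk1, Pfkm, Egln1, Vegfa, Tpi1, Aldoa and Gapdh were also lower, but with median-ratio scaling Aldoa and Gapdh turned to 0.03 and 0.07, Tpi1 was at -0.01 and Vegfa at -0.28, none of them called. Scaling also moved Pgam1 to -0.46, Pfkm to -0.45, Egln1 to -0.30, Bnip3 to 0.77 and Pfkfb4 to 0.65, all still called, and added Slc2a1 (0.79, adjusted p = 0.00859), Pfkl (0.52, adjusted p = 0.0120), Hk1 (0.47, adjusted p = 0.0138), Hk3, Higd1a and Pkm to the members called higher. With no filter, Aldoa and Gapdh were not called. Aldoa was further lost without untreated replicate 1 or fatty acid then LPS replicate 2 or 3 (-0.39 to -0.23, adjusted p up to 0.125), Tpi1 without untreated replicate 1 or fatty acid then LPS replicate 3 (-0.43 to -0.30, adjusted p up to 0.0598), and Gapdh without any untreated replicate or fatty acid then LPS replicate 2 or 3 (-0.32 to -0.24, adjusted p up to 0.121). Both shares on the deposited values are near those of all genes tested.

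Promoters are shown for members called in fatty acid then LPS against LPS, to let the sequence that HIF-1 is known to bind be seen in genes that went opposite ways. The core letters ACGTG and GCGTG were searched on both strands, where the other strand reads CACGT and CACGC, from 250 bases before to 50 after each RefSeq start (GRCm38.p6). They are in capitals in the lines below. Pgam1 and Aldoc are the members called lower with the smallest adjusted p, and Pfkfb4 is the member called higher. Only promoters that hold these letters were eligible to be shown, so a match in each was set by that rule.
Pgam1, chr19:41911621-41911920, plus strand, 3 matches: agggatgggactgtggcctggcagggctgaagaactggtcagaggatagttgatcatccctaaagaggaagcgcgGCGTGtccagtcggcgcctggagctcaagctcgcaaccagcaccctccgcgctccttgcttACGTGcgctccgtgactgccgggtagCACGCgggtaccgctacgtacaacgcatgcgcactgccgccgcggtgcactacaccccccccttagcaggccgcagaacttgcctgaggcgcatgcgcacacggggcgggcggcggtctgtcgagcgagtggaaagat
Aldoc, chr11:78322823-78323122, plus strand, 3 matches: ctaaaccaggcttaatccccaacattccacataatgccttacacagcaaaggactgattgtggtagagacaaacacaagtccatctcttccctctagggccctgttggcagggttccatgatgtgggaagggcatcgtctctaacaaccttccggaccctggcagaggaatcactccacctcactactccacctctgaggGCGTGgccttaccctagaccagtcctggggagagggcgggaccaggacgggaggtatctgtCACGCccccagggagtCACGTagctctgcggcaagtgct
Pfkfb4, chr9:108991652-108991951, plus strand, 1 match: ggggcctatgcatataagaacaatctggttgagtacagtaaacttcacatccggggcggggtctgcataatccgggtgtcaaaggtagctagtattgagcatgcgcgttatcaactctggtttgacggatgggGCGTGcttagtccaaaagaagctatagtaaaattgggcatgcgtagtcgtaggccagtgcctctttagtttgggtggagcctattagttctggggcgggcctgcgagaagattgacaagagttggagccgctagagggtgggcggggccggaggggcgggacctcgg

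The letters were common in the members and also in other genes. Of 49 RefSeq promoters of 33 members, 39 (79.6%) held at least 1 match, and 30 of the 33 genes (90.9%) had such a promoter. Among promoters of the same length, 6028 of 9614 (62.7%) belonging to genes tested in the fatty acid table and 14380 of 32851 (43.8%) of all held a match. Counted by gene, 5185 of 7564 genes tested (68.5%) and 46.7% of all genes had such a promoter. The median number of CG steps was 20 in the members' promoters, 21 in those of genes tested and 7 in all promoters, and the searched letters contain a CG step. A further RefSeq start of Aldoc had 1 match. Bnip3l and Ndrg1 had no promoter entry in the sources used here, so their promoters were not searched. A match is a run of letters, and no binding was measured here.

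Counts of neighbouring pathways stand beside 13.8% higher and 47.9% lower of all genes tested in LPS against untreated cells, and 21.8% higher and 15.3% lower in fatty acid then LPS against LPS. Of 13 other glycolysis genes tested, 2 were higher and 7 lower with LPS (15.4% and 53.8%). The higher ones were Slc2a6, a glucose transporter family member (2.49, adjusted p = 2.57e-06), and Pgm2, a phosphoglucomutase (0.67, adjusted p = 0.00122), and among the lower ones Ldhb, the lactate dehydrogenase subunit that favours pyruvate, changed by -1.28, adjusted p = 9.10e-07. In fatty acid then LPS against LPS, 0 of these 13 were higher by limma (1 at an unadjusted p under 0.05) and 6 lower (46.2%), among them Slc16a1, the lactate and pyruvate carrier MCT1 (-0.51, adjusted p = 0.00119), Tigar, a phosphatase that lowers the activator made by Pfkfb3 (-0.40, adjusted p = 0.00512), and Bsg, the chaperone of MCT4 (-0.46, adjusted p = 0.0112). Tigar averaged 0.770 after fatty acid then LPS and 1.32 after LPS alone, and Slc16a1 0.755 after LPS alone, near the filter limit of 1. Slc16a1 and Pgam2 were among those lower with LPS. They averaged 0.755 and 0.834 after LPS and 1.24 and 1.29 in untreated cells, so the filter may have set their direction. Of 10 pentose phosphate genes, 2 were higher and 4 lower with LPS, and 0 were higher and 5 lower with fatty acid before LPS by limma (0 higher also at an unadjusted p under 0.05). Tkt, the transketolase, was lower there (-0.88, adjusted p = 0.000286) and higher with TAK242 present (0.73, adjusted p = 0.00385), and G6pdx, the entry enzyme, was higher with LPS (0.37, adjusted p = 0.00451) and lower with fatty acid before LPS (-0.48, adjusted p = 0.00313).

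Of 17 citric acid cycle genes, 1 was higher and 11 lower with LPS (5.88% and 64.7%), with Suclg2 (-1.65, adjusted p = 3.37e-08), Fh1 (-1.11, adjusted p = 2.31e-07), Idh2 (-1.60, adjusted p = 1.02e-06) and Sdha (-0.91, adjusted p = 3.71e-06) lower. With fatty acid before LPS, 0 of the 17 were higher by limma (1 at an unadjusted p under 0.05) and 2 lower, among them Mdh2 (-0.57, adjusted p = 0.0113). Of 10 genes of pyruvate import and pyruvate dehydrogenase, 1 was higher and 6 lower with LPS, Pdhb among them (-0.46, adjusted p = 0.000316), and 1 was higher and 2 lower with fatty acid before LPS. Pdk2, among those lower with LPS, averaged 0.889 after LPS and 1.98 in untreated cells. Pcx, the higher one, averaged 5.66 and 0.602, so the filter may have set both directions. In the HIF machinery outside the members, 9 genes were tested, of which 2 were higher and 2 lower with LPS. The lower ones were Cul2 (-0.39, adjusted p = 0.0348) and Epas1. Epas1, which encodes the sister factor HIF-2α, averaged 0.0383 ± 0.0235 after LPS and 3.56 ± 0.484 in untreated cells (SD, n = 3 each). It passed the filter through the untreated libraries, so its direction was set by the filter and its call is a description only. Of 27 other HIF targets, 7 were higher and 12 lower with LPS (25.9% and 44.4%), and 7 higher and 9 lower with fatty acid before LPS (25.9% and 33.3%). Lox, the collagen-linking enzyme, was higher with LPS (4.69, adjusted p = 1.34e-06) and lower with fatty acid before LPS (-2.24, adjusted p = 0.00180), and Ero1l, an oxidase of the endoplasmic reticulum, changed by 1.07, adjusted p = 7.62e-05 and -0.79, adjusted p = 0.00251. Cxcr4, a chemokine receptor, went the other way, by -2.71, adjusted p = 8.17e-09 with LPS and 0.63, adjusted p = 0.00234 with fatty acid before LPS.

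In the Western diet table, libraries did not follow their LPS labels. Ccl5, a chemokine gene that LPS raised to 3495, 5431 and 6705 in LPS-treated chow cells of the fatty acid table, had 0.463, 10.5 and 6905 in the libraries labelled with LPS, 7846, 13.7 and 10973 in those labelled without LPS and 2.06, 2.38 and 1.57 in chow cells. Thus replicates 1 and 3 labelled without LPS and replicate 3 labelled with LPS were high, and the rest were low. The 8 LPS-response markers summed to 19.1, 154.1 and 20578 in the libraries labelled with LPS, 22912, 129.6 and 24131 in those labelled without LPS, and 28.7 to 34.3 in chow cells. All directions in this table are therefore by label only, and counts and the changes with the smallest adjusted p are given with and without the libraries that go against it. Neutrophil markers summed to 22.7 to 33.2 in the libraries labelled with LPS, 2.30 to 7.09 in those labelled without LPS and 6.61 to 10.2 in chow cells. Stromal markers summed to 1.48 to 2.67 with the LPS label, 3.59 to 6.66 without it and 0.191 to 0.771 in chow cells, and neither list overlapped between the diet labels. Of the dendritic cell markers Xcr1 reached 2.71, and no lymphocyte or erythroid marker reached 1. The part of these markers in the results was not tested.

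By label, 0 of 34 members were higher and 0 lower in Western diet without LPS against chow by limma, beside 0.0678% and 0.165% of the 10331 genes tested; at an unadjusted p under 0.05, 7 were higher and 2 lower, beside 6.7% and 20.6% of the genes tested. In Western diet with LPS against without LPS, 1 member was higher and 0 lower, beside 0.678% and 0.281%, with 2 higher and 9 lower at an unadjusted p under 0.05, where 11.1% and 6.11% of the genes tested were. The member called was Eno2 (0.93 ± 0.16, adjusted p = 0.0473). Eno2 had 1.99, 1.41 and 1.42 in the libraries labelled with LPS, 0.353, 0.209 and 0.556 in those labelled without LPS and 0.265, 0.415 and 0.123 in chow cells. The libraries labelled with LPS were above all others, and Eno2 passed the filter through those 3 libraries alone, so its direction was set by the filter and the call is a description only. That call was lost without replicate 1 or 3 labelled without LPS or replicate 1 or 2 labelled with LPS (change 0.82 to 1.02, adjusted p up to 0.222). With median-ratio scaling the median of all genes moved by 0.33 in Western diet without LPS against chow and by -0.18 in Western diet with against without LPS.

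Pfkfb3, which was called higher with LPS in the other table, went with Ccl5 here and not with the labels. Pfkfb3 had 10.7, 11.4 and 82.2 in the libraries labelled with LPS, 99.2, 4.72 and 162 in those labelled without LPS and 3.29, 3.71 and 4.16 in chow cells. The high libraries were the same as for Ccl5. Hk3, which was not called with LPS in the other table, had 115, 129.9 and 177 in the libraries labelled with LPS, 233, 72.4 and 232 in those labelled without LPS and 63.2, 66.0 and 64.2 in chow cells. Its 3 highest values were in the libraries with high Ccl5, and all of the libraries labelled with LPS were above the chow ones. Slc2a1 had 11.6, 10.8 and 15.9 in the libraries labelled with LPS, 38.3, 24.4 and 37.2 in those labelled without LPS and 18.5, 29.1 and 18.4 in chow cells. It differed by label, since all libraries labelled with LPS were lower than every other library. Within each Western diet label, the libraries with high Ccl5 also had the highest Slc2a1. The highest of all were replicates 1 and 3 labelled without LPS.

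Aldoc, Pdk1 and Mxi1, called lower with LPS in the other table, showed the reverse split. Aldoc had 7.24, 8.27 and 1.72 in the libraries labelled with LPS, 1.46, 14.4 and 1.09 in those labelled without LPS and 13.1, 11.3 and 10.3 in chow cells. Its low libraries were the ones high for Ccl5. Pdk1 had 7.74, 7.98 and 3.00 in the libraries labelled with LPS, 3.68, 13.8 and 2.76 in those labelled without LPS and 11.2, 13.2 and 10.99 in chow cells. Mxi1 had 1.90, 2.51 and 0.744 in the libraries labelled with LPS, 0.693, 2.10 and 0.719 in those labelled without LPS and 2.93, 3.17 and 3.00 in chow cells. Both were lowest in those same libraries. Pfkm, Egln1 and Gpi1 were lowest in them too, with 1.77 to 3.07, 2.34 to 3.21 and 149 to 188, although Gpi1 was called in no comparison of the other table. Pfkp had 30.4, 29.0 and 11.2 in the libraries labelled with LPS, 23.1, 30.2 and 25.6 in those labelled without LPS and 27.8, 29.7 and 28.0 in chow cells. Replicate 3 labelled with LPS was low, while replicates 1 and 3 labelled without LPS lay between it and the others.

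**Figure D4:**
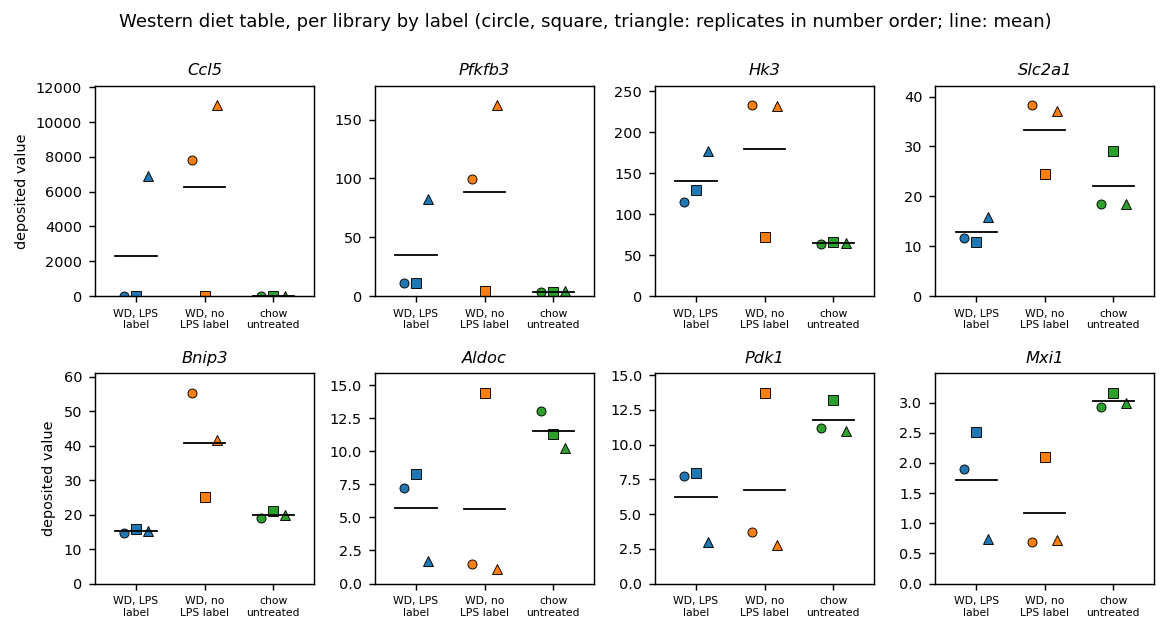
Deposited values (y axis, starting at 0) of Ccl5 and 7 members in the 9 libraries of the Western diet table, by label (x axis), with circle, square and triangle for the replicates in number order and a line at the group mean. Pfkfb3 was high and Aldoc, Pdk1 and Mxi1 low in the 3 libraries with high Ccl5, replicate 3 labelled with LPS and replicates 1 and 3 labelled without LPS.

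Further members varied by library within a label. Bnip3 had 14.6, 15.7 and 15.1 in the libraries labelled with LPS, 55.5, 25.2 and 41.5 in those labelled without LPS and 19.0, 21.0 and 19.8 in chow cells. The libraries labelled with LPS were lower than the chow ones, which were lower than those labelled without LPS. P4ha1 had 40.9, 43.5 and 68.7 in the libraries labelled with LPS, 84.5, 63.1 and 81.8 in those labelled without LPS and 40.1, 47.5 and 39.2 in chow cells. It was high in the libraries with high Ccl5 and, less so, in replicate 2 labelled without LPS. Slc16a3 had 14.0, 17.8 and 15.8 in the libraries labelled with LPS, 47.8, 38.8 and 86.8 in those labelled without LPS and 10.9, 37.3 and 34.2 in chow cells. The chow replicates themselves spanned a wide range, replicate 4 being low. Hif1a had 19.4, 16.5 and 21.2 in the libraries labelled with LPS, 9.12, 23.1 and 12.5 in those labelled without LPS and 20.1, 4.89 and 4.88 in chow cells. Chow replicate 4 was about as high as the libraries labelled with LPS, and chow replicates 5 and 6 were the lowest of the table, while the overlapping Gm15283 was at 3.11, 2.95 and 2.78 in the same chow libraries. Ndrg1 had 5.42, 6.62 and 0.832 in the libraries labelled with LPS, 2.23, 1.37 and 2.61 in those labelled without LPS and 0.964, 0.542 and 0.796 in chow cells. Its highest values were replicates 1 and 2 labelled with LPS. Ankrd37 had 5.66, 5.50 and 1.87 in the libraries labelled with LPS, 6.05, 3.09 and 6.06 in those labelled without LPS and 1.63, 2.34 and 2.79 in chow cells. The chow libraries and replicate 3 labelled with LPS were the low ones.

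Egln3 and P4ha2 also spread widely over the libraries, and the abundant glycolysis genes less so. Hk2 had 8.09, 7.23 and 13.1 in the libraries labelled with LPS, 12.7, 10.6 and 12.03 in those labelled without LPS and 7.62, 10.7 and 8.29 in chow cells. Egln3 had 2.09, 1.64 and 0.552 in the libraries labelled with LPS, 3.03, 1.08 and 2.43 in those labelled without LPS and 0.410, 0.623 and 0.479 in chow cells. P4ha2 had 16.0, 10.9 and 3.24 in the libraries labelled with LPS, 6.91, 7.85 and 4.73 in those labelled without LPS and 3.40, 5.89 and 4.87 in chow cells. Egln3 was lowest in chow cells and in replicate 3 labelled with LPS, and P4ha2 was highest in replicates 1 and 2 labelled with LPS. Hk2 overlapped between the labels, with 13.1, 12.7 and 12.03 in the libraries with high Ccl5 and 10.7 or less in the others. Vegfa had 4.02, 6.14 and 1.52 in the libraries labelled with LPS, 4.69, 2.50 and 3.36 in those labelled without LPS and 2.97, 5.14 and 3.30 in chow cells. Adm was listed at 0 in the 3 chow libraries and did not exceed 0.129 elsewhere. Vegfa overlapped between all labels. Gapdh had 1522, 1692 and 1320.1 in the libraries labelled with LPS, 2142, 1809.7 and 1954 in those labelled without LPS and 1918, 1773 and 1908 in chow cells. Pgk1 had 287, 348 and 256 in the libraries labelled with LPS, 564, 539.7 and 508 in those labelled without LPS and 378, 461 and 426 in chow cells. Aldoa had 695, 671 and 481 in the libraries labelled with LPS, 941, 922 and 1011 in those labelled without LPS and 785, 1042 and 827 in chow cells. For Gapdh, Pgk1 and Aldoa, every library labelled with LPS was below every library labelled without LPS. Ldha had 351, 389 and 284 in the libraries labelled with LPS, 596, 512 and 461 in those labelled without LPS and 373, 558 and 445 in chow cells. Eno1 had 463, 460.3 and 276 in the libraries labelled with LPS, 605, 543 and 436 in those labelled without LPS and 562, 709 and 530.1 in chow cells. Pkm had 582, 579 and 558 in the libraries labelled with LPS, 861, 681 and 704 in those labelled without LPS and 794, 897 and 629.7 in chow cells. Ldha and Pkm showed the same order of the diet labels, and for Eno1 replicate 3 labelled without LPS lay among the libraries labelled with LPS. None of these passed the adjusted threshold. Pgk1 came nearest (-0.86, adjusted p = 0.0962) after Bnip3 (-1.30, adjusted p = 0.0681) and Slc2a1 (-1.31, adjusted p = 0.0699). Tpi1 ranged from 198 to 459, Pgam1 from 70.0 to 155, Pfkl from 33.9 to 54.2, Hk1 from 15.9 to 30.9, Pfkfb4 from 4.66 to 7.11, Bnip3l from 6.64 to 13.4 and Higd1a from 12.3 to 25.1 over the 9 libraries.

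Leaving out single libraries moved these counts. Without replicate 2 labelled without LPS, whose Ccl5 was low, 8 members were higher and 6 lower in Western diet without LPS against chow (23.5% and 17.6%), beside 12.1% and 44.4% of the genes tested, among them Pfkfb3 (4.76, adjusted p = 0.00340), Hk3 (1.84, adjusted p = 0.00125), Aldoc (-2.46, adjusted p = 0.00579) and Pdk1 (-1.60, adjusted p = 0.00808). In Western diet with against without LPS the same omission gave 2 members higher and 8 lower (5.88% and 23.5%), beside 29.8% and 9.72%, among them Pfkfb3 (-2.48, adjusted p = 0.0431) and Slc2a1 (-1.51, adjusted p = 0.00899). Without replicate 3 labelled with LPS, 2 were higher and 2 lower there, beside 5.04% and 2.19%. Without the 4 libraries whose Ccl5 contradicts the LPS label (with LPS, replicates 1 and 2; without LPS, replicates 1 and 3), a single library remained for each Western diet label, which the fit assumes to vary as the others do. Then 0 members were higher and 0 lower in Western diet without LPS against chow by limma (2 higher and 1 lower at an unadjusted p under 0.05), beside 0.116% and 0.106%. In Western diet with against without LPS 3 were higher and 13 lower (8.82% and 38.2%), beside 8.35% and 23.6%. There Eno2 was at 1.00, adjusted p = 0.0243, Pgk1 at -1.07, adjusted p = 0.0167, Bnip3 at -0.70, adjusted p = 0.0356, Slc2a1 at -0.59, adjusted p = 0.280, and Pfkfb3 at 3.86, adjusted p = 0.00188, in place of -0.98 with all libraries.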

How the data were processed

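RNA from 21 libraries was measured by sequencing. Per the submitters' processing notes, HISAT2 2.0.5, Trim Galore 0.4.1, FastQC 0.11.5 and CASAVA 1.8.2 took part, with builds mm10 and mm9 named but given no role; the quantification step and the unit are not given in the sources used here. The deposited values carry no named unit and were treated as a score per gene that behaves like FPKM; they hold no counts, so read depth and counting error are unknown and the number of libraries limits precision. Coordinates were identical to GRCm38 GENCODE M21 for 46771 of 50645 genes (fatty acid table) and 46770 of 50644 (Western diet table). Entries with displaced columns were left out (36 and 35 entries), and no member was among them.

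The filter required 3 libraries of a table at 1 or above and left 10476 and 10331 genes. In R 4.3.3, limma 3.58.1 with a mean-variance trend was run on log2(value + 1), with a coefficient per group over all libraries of a table. P-values were adjusted by Benjamini-Hochberg over all genes tested, with calls at an adjusted p under 0.05, and every adjusted p in the text is limma's. A count test, named in the plan for the case of raw counts, was not used. Fits stayed within a table, since it is not known whether the tables share a normalization. The script was tested on simulated data. Alternatives were no filter, a minimum of 5, a pseudocount of 0.1, median-ratio scaling, only the 6 libraries compared, each library left out, the replicate number as a block, and leaving out 4 libraries that go against their label.

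All members are accounted for; values per library are given for a named set of members and for the 4 members with the smallest adjusted p each way in a comparison, and up to 4 called genes are named of each other pathway. The members, gene lists, named set and alternatives were chosen with earlier results of these data known. Promoter sequences are from RefSeq (GRCm38.p6). Data handling used matplotlib 3.10.9 and pandas 2.3.3 under Python 3.11.15.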

Additional observations from a re-analysis of the deposited data

How the results depend on the processing

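Counts below are of the 34 members tested, higher and lower. With median-ratio scaling they were 20 higher in LPS against untreated cells, in place of 12, 11 higher in fatty acid then LPS against untreated cells, in place of 5, 8 higher in fatty acid with TAK242 then LPS against fatty acid then LPS, in place of 5, and 1 lower in fatty acid with TAK242 then LPS against LPS, in place of 0. Under that scaling Egln1 in LPS against untreated cells turned to 0.0252, and Aldoa and Gapdh in fatty acid then LPS against untreated cells to 0.0316 and 0.0731, none called. A minimum of 5, which tests fewer genes, gave 5 lower in LPS against untreated cells, in place of 8. For fatty acid with TAK242 then LPS against fatty acid then LPS, no filter gave 1 higher and only the 6 libraries compared gave 9 higher; against LPS, both settings gave 0 higher in place of 1. The single member higher in Western diet with against without LPS, by label, was lost (0) with no filter, a minimum of 5, a pseudocount of 0.1, median-ratio scaling, only the 6 libraries compared and the replicate block; without the 4 libraries against their label 3 were higher and 13 lower. The cause was not tested for any of these.

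With each library left out in turn, LPS against untreated cells gave 9 to 13 higher and 7 to 9 lower, fatty acid then LPS against LPS 1 to 3 higher (3 without LPS replicate 3) and 10 to 14 lower, and fatty acid then LPS against untreated cells 5 higher in every fit and 10 to 13 lower. Fatty acid with TAK242 then LPS against fatty acid then LPS gave 0 to 3 higher, with 3 without replicate 3 with TAK242, 2 without replicate 1 of fatty acid then LPS and 0 without any other library, and 0 to 1 lower, with 1 only without replicate 3 with TAK242. Against LPS it gave 0 to 2 higher and 0 to 3 lower, the highest of both without LPS replicate 3. By label, Western diet without LPS against chow gave 0 to 8 higher and 0 to 6 lower, and Western diet with against without LPS 0 to 2 higher and 0 to 8 lower.

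The labels do not say whether replicate numbers pair the samples. In the fatty acid table, same-numbered libraries of compared groups had correlations of their deviations from the group means of -0.081 to 0.2. In Western diet with against without LPS these correlations were -0.666, 0.681 and 0.761. With 3 libraries a group, such values can neither show nor exclude a pairing. With the replicate block, 0 members were lower in fatty acid with TAK242 then LPS against fatty acid then LPS, in place of 1, Mxi1 was not called among the higher ones, which still numbered 5, and Gapdh was not called in fatty acid then LPS against untreated cells. Values near the filter limit of 1, such as those of Egln3, Eno2 and Mxi1, carry an unknown counting error.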
